A study of Homo sapiens with 12 samples.

Results

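Collagens, laminins and other extracellular matrix genes, with the enzymes and the chaperone that mature collagen, were followed in HCC827 cells and 3 lines derived from them. HCC827 is an established human non-small cell lung cancer line with an EGFR mutation, the receptor of epidermal growth factor. The list holds 47 genes, picked by name, of which 44 were measured among the 11963 genes on the arrays. COL12A1, LAMA3 and COL17A1 had no probe set annotated to their symbol alone and are not analysed here. Each gene was read from its brightest probe set, taken by the mean of its 12 arrays among the probe sets annotated to a single symbol. Levels are given as log2(intensity + 1) and are written below as log2 levels.

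There were 4 groups of 3 arrays, all of total RNA from exponentially growing cells. ERC4 cells, which the labels call resistant to the EGFR kinase inhibitor erlotinib, were set against the parental HCC827 cells, and both grew in RPMI with 5% FBS and antibiotics. Esh9-1 cells, which carry a lentiviral shRNA against EGFR, were set against HCC827NT cells, which carry a lentiviral non-target shRNA, and both of these also had 5 ug/ml puromycin. ERC4 is 1 line and Esh9-1 is 1 shRNA line, so that each comparison rests on a single derived line. One characteristic of the labels describes all 12 samples as resistant, the parental ones included, and groups were therefore taken from titles and descriptions. The labels do not say whether replicates were separate cultures. The p-values thus reflect the spread between the samples at hand, and this may be technical spread. In such bulk RNA, fewer cells of a type and less RNA per cell cannot be told apart.

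Epithelial cells sit on a basement membrane, a sheet built on a network of type IV collagen and a network of laminins, each laminin being a trimer of an alpha, a beta and a gamma chain. The connective tissue under it is made of fibrillar collagens, with collagen VI filaments, fibronectin, proteoglycans and matricellular proteins around the fibres. Collagen chains are hydroxylated by the P4HA and PLOD enzymes, folded with the chaperone SERPINH1 and cross-linked outside the cell by LOX and its relatives.

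The promoter sequences of 5 members are shown first, because these genes carry the results that follow. THBS1, SPARC and COL5A1 had the largest rises in Esh9-1 cells by their brightest probe sets, LAMB3 fell in both comparisons, and COL4A2 shares its start region with COL4A1. The windows run from 250 bases before to 50 bases after a start site, are taken from RefSeq (GRCh38.p14) and are written 5′ to 3′ on the gene's own strand. A window was found for 34 of the 44 measured members, and where a gene had several, as COL5A1 with 2 and LAMB3 with 3, the first listed was used. Capitals mark matches, on either strand, to the CCAAT box (CCAAT), the TEAD motif (GGAATG), the AP-1 motif (TGANTCA) or the E-box of ZEB and SNAI factors (CAGGTG), which do not overlap in these windows.
THBS1: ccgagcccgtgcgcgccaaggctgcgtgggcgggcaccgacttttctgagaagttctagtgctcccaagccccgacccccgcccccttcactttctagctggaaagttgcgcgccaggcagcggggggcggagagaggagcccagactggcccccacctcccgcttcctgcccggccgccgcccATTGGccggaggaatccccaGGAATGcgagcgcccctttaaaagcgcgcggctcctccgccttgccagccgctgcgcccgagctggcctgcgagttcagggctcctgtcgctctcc
SPARC: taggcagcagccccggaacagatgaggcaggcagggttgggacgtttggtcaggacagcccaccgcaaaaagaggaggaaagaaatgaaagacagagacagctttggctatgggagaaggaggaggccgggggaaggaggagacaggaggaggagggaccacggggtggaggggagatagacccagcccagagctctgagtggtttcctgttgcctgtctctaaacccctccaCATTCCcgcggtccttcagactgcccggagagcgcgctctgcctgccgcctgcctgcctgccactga
COL5A1: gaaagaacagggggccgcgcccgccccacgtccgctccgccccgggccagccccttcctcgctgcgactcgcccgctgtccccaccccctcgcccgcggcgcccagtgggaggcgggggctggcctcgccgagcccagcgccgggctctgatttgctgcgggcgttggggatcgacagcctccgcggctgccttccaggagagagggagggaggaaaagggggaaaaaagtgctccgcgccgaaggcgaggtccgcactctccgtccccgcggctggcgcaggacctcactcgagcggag
LAMB3: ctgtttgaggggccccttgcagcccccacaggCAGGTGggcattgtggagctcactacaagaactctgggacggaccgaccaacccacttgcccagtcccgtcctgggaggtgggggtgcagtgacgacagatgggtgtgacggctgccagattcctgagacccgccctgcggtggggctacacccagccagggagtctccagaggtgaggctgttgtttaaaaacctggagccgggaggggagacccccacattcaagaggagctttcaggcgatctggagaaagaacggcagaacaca
COL4A2: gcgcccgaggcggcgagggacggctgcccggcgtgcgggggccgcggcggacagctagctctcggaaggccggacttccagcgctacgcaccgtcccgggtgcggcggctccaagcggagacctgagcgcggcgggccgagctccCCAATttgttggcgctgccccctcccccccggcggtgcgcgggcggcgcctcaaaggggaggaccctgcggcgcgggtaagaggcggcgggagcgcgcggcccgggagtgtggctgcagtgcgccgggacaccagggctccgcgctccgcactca
The THBS1 window lies on the plus strand at chr15:39580829-39581128, with 70.0% G and C, and holds a CCAAT box at -66 and a TEAD motif at -46, both counted from the start site. The SPARC window, on the minus strand at chr5:151686866-151687165, holds a TEAD motif at -17. The COL5A1 window, on the plus strand at chr9:134641553-134641852, holds none of the 4 motifs. The LAMB3 window, on the minus strand at chr1:209652376-209652675, holds the E-box at -218. The COL4A2 window, on the plus strand at chr13:110307034-110307333, has 77.7% G and C and a CCAAT box at -105. Among 35116 promoter windows of the same length, 34.6% hold the CCAAT box, 14% the TEAD motif, 7.71% the AP-1 motif and 20.6% the E-box. These matches describe the letters of the windows only.

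EGFR was checked first. Its log2 level was 12.25 ± 0.09 in Esh9-1 cells and 13.55 ± 0.10 in HCC827NT cells (SD, n = 3 each), a fall by 1.30 ± 0.07 (SE, adjusted p = 2e-09). In ERC4 cells it was 12.60 ± 0.09, against 12.38 ± 0.04 in HCC827 cells (log2 change 0.21, adjusted p = 0.025). Array medians lay between 50 and 53 intensity units in ERC4 and HCC827 cells and between 141 and 143 in Esh9-1 and HCC827NT cells, so comparisons were made within each pair. Replicate arrays correlated at 0.9923 or above. The 3′ minus 5′ signal of the ACTB control, a sign of RNA quality, was 0.96 to 1.24 in Esh9-1 and 0.17 to 0.23 in HCC827NT arrays on the log2 scale, and 0.17 to 0.23 in ERC4 and 0.17 to 0.28 in HCC827 arrays. Hybridisation controls had a mean log2 level of 9.16 in ERC4 and 10.75 in HCC827 arrays, and of 11.65 in Esh9-1 and 11.04 in HCC827NT arrays. The part of these shifts in the results was not tested.

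Changes of marker genes were counted at an adjusted p under 0.05 over all genes. Of 8 markers of lung epithelial carcinoma cells, 7 fell and NKX2-1 rose in ERC4 cells, beside 28.8% and 28.9% of all genes. In Esh9-1 cells all 8 fell, beside 24.6% of all genes. CDH1, the epithelial cadherin, was at 7.59 ± 0.10 in ERC4 against 10.34 ± 0.14 in HCC827 cells, and at 6.27 ± 0.10 in Esh9-1 against 12.54 ± 0.19 in HCC827NT cells. Of 19 measured markers of fibroblasts, smooth muscle, endothelium and leukocytes, 18 lay under the array medians in all groups, and the exception was MYH11. None of the 19 rose and 8 fell in ERC4 cells, beside 28.9% and 28.8% of all genes. In Esh9-1 cells 1 rose (CNN1, by 0.55) and 3 fell, beside 25.3% and 24.6% of all genes. The summed intensity of the 19 markers on the log2 scale was 8.89 to 9.0 in ERC4 and 9.07 to 9.19 in HCC827 arrays. It was 10.01 to 10.03 in Esh9-1 and 10.03 to 10.08 in HCC827NT arrays. The part of these cell types in the results was not tested.

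Matrix transcripts moved mostly upward in Esh9-1 cells and in both directions in ERC4 cells. In Esh9-1 against HCC827NT, 26 of the 44 members rose, 3 fell and 15 were not called, where called means an adjusted p under 0.05 over all 11963 genes. Among all genes, 49.9% were called, 25.3% higher and 24.6% lower. For 33 members the arrays of both groups did not overlap, beside 61.3% of all genes. The 3 members that fell were LAMA5, LAMB3 and PLOD2. Of the rises, 17 reached 2-fold, against 4.89% of all genes, and no member fell by 2-fold or more, against 4.11% of all genes. For 11 of these 17 the HCC827NT mean lay under the array median, so that their folds stand on a dim control signal that is not shown to be above background. The median log2 change of the members was 0.71, beside -0.02 over all genes.

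In ERC4 against HCC827, 14 members rose, 17 fell and 13 were not called, beside 57.7% of all genes called, 28.9% higher and 28.8% lower. For 28 members the arrays of both groups did not overlap, beside 60.5% of all genes. Rises of 2-fold or more were seen for THBS1, COL18A1 and LAMC1 (4.51% of all genes), and LAMB3 was the 1 member that fell that far (1.79% of all genes). The members' median log2 change was 0.00, beside -0.04 over all genes. Of the 17 falls, 9 were in transcripts whose group means both lay under the array median, and those falls ran from -0.70 to -0.20 on the log2 scale. With each array centred on its median, 14 members rose and 10 fell, and with dim genes left out 12 rose and 8 fell. Higher calls then made up 58.3% and 60.0% of the members' calls, against 45.2% without those steps. Over all genes that share was 59.0% and 60.9%, against 50%. Of the 44 members, 13 lay under the array median in both comparisons by their brightest probe sets, among them COL1A2, COL3A1, COL11A1, POSTN, FBN2 and LOX.

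The difference between the changes in both comparisons was called for 32 of the 44 members, beside 49.6% of all genes. It was below 0, a higher change in Esh9-1 cells, for 27 of them, beside 24.1% of all genes. It was above 0, a higher change in ERC4 cells, for 5 members (LAMA5, LAMC1, PLOD2, P4HA1 and SERPINH1), beside 25.5% of all genes. These contrasts compare changes from sets of arrays whose values spread unequally, with an SD of log2 values of 1.83 to 1.96 in the ERC4 and HCC827 arrays and of 2.24 to 2.27 in the Esh9-1 and HCC827NT arrays.

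**Figure D1:**
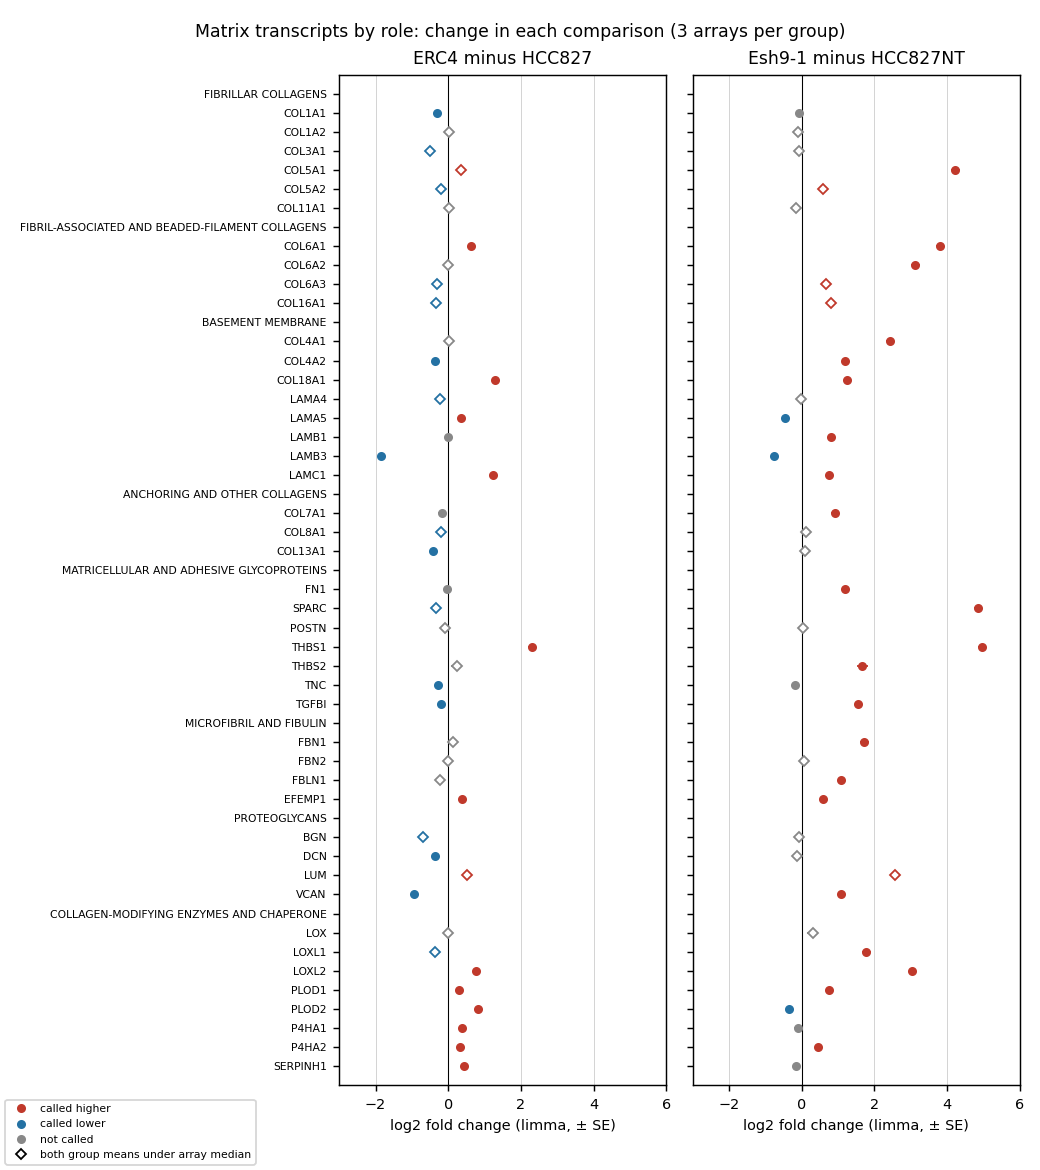
Log2 fold change of each of the 44 measured members (horizontal axis, limma estimate with its SE) in ERC4 minus HCC827 (left) and Esh9-1 minus HCC827NT (right), grouped by role. Red marks are called higher, blue lower and grey not called, and open diamonds have both group means under the array median; the right panel holds 17 rises of 2-fold or more and the left panel 3.

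The matricellular and adhesive glycoproteins held the largest changes. In Esh9-1 cells 5 of 7 rose, each by 2-fold or more, beside 4.89% of all genes. TNC and POSTN were not called there. In ERC4 cells THBS1 rose, SPARC, TNC and TGFBI fell, and the other 3 were not called. Of all genes, 28.9% were called higher and 28.8% lower in ERC4 cells.

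THBS1 encodes thrombospondin 1, a matrix protein that binds cell receptors and activates latent TGF-beta. Its log2 levels were 11.20, 11.55 and 11.53 in Esh9-1 arrays, against 6.41, 6.40 and 6.59 in HCC827NT arrays, which lay under the array median. In ERC4 arrays they were 8.08, 8.19 and 8.10, against 5.95, 5.81 and 5.71 in HCC827 arrays. Every array of the derived lines thus stood above every array of its control. The rise was 31.1-fold in Esh9-1 cells (log2 change 4.96 ± 0.10 SE, adjusted p = 2.2e-14) and 4.92-fold in ERC4 cells (2.30 ± 0.10, adjusted p = 2.2e-10). The log2 change in ERC4 minus that in Esh9-1 cells was -2.66 ± 0.14 (adjusted p = 1.7e-09). All 5 probe sets of THBS1 rose in both comparisons, by 0.81 to 6.29 in Esh9-1 and by 0.54 to 3.17 in ERC4 cells.

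SPARC, which encodes a collagen-binding glycoprotein also called osteonectin, separated the derived lines. Its log2 levels were 9.69, 9.44 and 9.40 in Esh9-1 arrays, against 4.52, 4.89 and 4.58 in HCC827NT arrays. In ERC4 arrays they were 3.56, 3.36 and 3.49, against 3.86, 3.87 and 3.70 in HCC827 arrays, all of them under the array median. Only the Esh9-1 arrays were high (log2 change 4.85 ± 0.10, adjusted p = 6e-14). The fold of 28.7 rests on a HCC827NT mean of 4.66, which lay under the array median and is not shown to be above background. In ERC4 cells the dim signal fell by 0.34 on the log2 scale (adjusted p = 0.013), a call that ended without ERC4 replicate 2 (log2 change -0.28). The second SPARC probe set rose by 0.91 in Esh9-1 cells, and the mean of both gave 2.88, so that the size of the rise depends on the probe set.

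FN1 encodes fibronectin, which assembles into fibrils that other matrix proteins bind. Its log2 levels were 12.42, 12.49 and 12.60 in Esh9-1 arrays, against 11.31, 11.30 and 11.32 in HCC827NT arrays, with no overlap. The rise was 2.28-fold (log2 change 1.19 ± 0.07, adjusted p = 2.7e-09). In ERC4 arrays the levels were 9.47, 9.58 and 9.51, against 9.46, 9.64 and 9.55 in HCC827 arrays, and the groups overlapped (log2 change -0.03, adjusted p = 0.72).

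TGFBI, which encodes a TGF-beta-induced adhesive protein that binds collagen, had log2 levels of 14.94, 14.95 and 14.97 in Esh9-1 arrays, against 13.35, 13.47 and 13.37 in HCC827NT arrays. This was a 2.93-fold rise (adjusted p = 3.4e-11). In ERC4 arrays TGFBI was at 12.17, 12.12 and 12.11, against 12.30, 12.30 and 12.39 in HCC827 arrays, a fall by 0.20 on the log2 scale (adjusted p = 0.013) that was not called without HCC827 replicate 3 (-0.17) or with each array centred on its median (-0.14). THBS2, a second thrombospondin, was at 8.06, 7.90 and 7.52 in Esh9-1 arrays, against 5.90, 6.33 and 6.24 in HCC827NT arrays (3.18-fold, adjusted p = 3.9e-07). In ERC4 arrays THBS2 was at 5.62, 5.70 and 5.66, against 5.11, 5.49 and 5.69 in HCC827 arrays, where the groups overlapped (adjusted p = 0.21). TNC, which encodes tenascin C, fell by 0.29 in ERC4 cells (adjusted p = 0.0061) and had a log2 change of -0.18 in Esh9-1 cells (adjusted p = 0.078).

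Fibrillar collagens rose only in part. In Esh9-1 cells COL5A1 and COL5A2 were called higher and the other 4 had log2 changes of -0.17 to -0.07, none of them called. Of all genes, 25.3% were called higher there. COL5A1 encodes a chain of collagen V, which starts fibrils and sets their width. Its log2 levels were 10.53, 10.40 and 10.52 in Esh9-1 arrays, against 6.17, 6.39 and 6.20 in HCC827NT arrays, and the HCC827NT values lay under the array median. The rise was 18.8-fold (log2 change 4.23 ± 0.13, adjusted p = 1.7e-12). In ERC4 arrays COL5A1 was at 5.30, 5.01 and 5.30, against 4.92, 4.53 and 5.13 in HCC827 arrays, a dim signal whose groups overlapped (0.34, adjusted p = 0.035). That last call ended without HCC827 replicate 2 (0.17), ERC4 replicate 1 (0.29) or ERC4 replicate 3 (0.29).

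COL5A2, the partner chain, rose by 0.59 on the log2 scale in Esh9-1 cells, with both groups under the array median. The chains of collagens I and III, the main fibre formers of skin, bone and vessels, were not among the rises by their brightest probe sets. COL1A1 fell by 0.30 in ERC4 cells (adjusted p = 0.0058) and was not called in Esh9-1 cells (-0.08, adjusted p = 0.46). COL3A1, under the array median throughout, fell by 0.50 in ERC4 cells (adjusted p = 4.7e-04) by its brightest probe set and was not called in Esh9-1 cells (-0.07, adjusted p = 0.61). Its other 3 probe sets gave -0.11 to 0.02 in ERC4 cells, none called, and the mean of all was -0.17 (adjusted p = 0.022). COL1A2 and COL11A1 were called in neither comparison by their brightest probe sets. A dimmer probe set of each was called higher in ERC4 cells, by 0.19 for COL1A2 and 0.35 for COL11A1.

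All 4 measured collagens of the fibril-associated and beaded-filament group rose in Esh9-1 cells, beside 25.3% of all genes. COL6A1 and COL6A2 encode chains of collagen VI, which forms beaded filaments between cells and fibres. COL6A1 was at 10.04, 10.08 and 10.15 in Esh9-1 arrays, against 6.15, 6.42 and 6.32 in HCC827NT arrays (13.8-fold, log2 change 3.79 ± 0.10, adjusted p = 2.9e-13). COL6A2 was at 8.95, 8.92 and 8.75 in Esh9-1 arrays, against 5.59, 5.98 and 5.68 in HCC827NT arrays (8.75-fold, adjusted p = 9.7e-12). By these probe sets both were high in every Esh9-1 array and under the array median in every HCC827NT array. The other probe sets moved less. Those of COL6A1 gave log2 changes of -0.03 to 1.70, with 4 of its 8 probe sets not called, and their mean rose by 0.88. The second of COL6A2 rose by 0.73, and the mean of both by 1.93.

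In ERC4 arrays COL6A1 was at 6.47, 6.17 and 6.45, against 5.89, 5.68 and 5.62 in HCC827 arrays, a rise by 0.63 ± 0.10 (adjusted p = 7.6e-05) whose value with the mean of its probe sets was 0.02 (adjusted p = 0.82). COL6A2 was at 5.59, 5.48 and 5.49 in ERC4 arrays, against 5.68, 5.29 and 5.58 in HCC827 arrays, and did not pass the test (adjusted p = 0.98). COL6A3, another chain, and COL16A1, a fibril-associated collagen, lay under the array median in all groups. COL6A3 had log2 changes of 0.67 in Esh9-1 and -0.30 in ERC4 cells, and COL16A1 of 0.81 and -0.35, all called. Both calls in ERC4 cells ended without ERC4 replicate 2 (-0.20 for COL6A3 and -0.31 for COL16A1), and also without other single arrays.

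Basement membrane genes moved in both directions in both lines. In Esh9-1 cells 5 of 8 rose (COL4A1, COL4A2, COL18A1, LAMB1 and LAMC1), 2 fell (LAMA5 and LAMB3) and LAMA4 was not called. In ERC4 cells 3 rose (COL18A1, LAMA5 and LAMC1), 3 fell (COL4A2, LAMA4 and LAMB3) and COL4A1 and LAMB1 were not called. Of all genes, 28.9% were called higher and 28.8% lower in ERC4 cells, and 25.3% and 24.6% in Esh9-1 cells. Mixed directions were thus also seen over all genes.

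COL4A1 and COL4A2 encode the chains of the most widespread type IV collagen. COL4A1 was at 9.10, 8.85 and 9.13 in Esh9-1 arrays, against 6.74, 6.57 and 6.50 in HCC827NT arrays (5.36-fold, log2 change 2.42 ± 0.12, adjusted p = 2.7e-10). COL4A2 was at 9.91, 9.89 and 9.83 in Esh9-1 arrays, against 8.80, 8.64 and 8.60 in HCC827NT arrays (2.29-fold, 1.20 ± 0.07, adjusted p = 2e-09). Both chains were higher in each Esh9-1 array than in any HCC827NT array. In ERC4 arrays COL4A1 was at 5.12, 4.77 and 5.16, against 5.04, 4.83 and 5.13 in HCC827 arrays, a dim signal with overlapping groups (log2 change 0.02, adjusted p = 0.92). In ERC4 arrays COL4A2 was at 6.51, 6.57 and 6.50, against 6.82, 6.92 and 6.91 in HCC827 arrays, which did not overlap (-0.36 ± 0.07, adjusted p = 5e-04). These 2 genes stand head to head on chromosome 13, with start sites 127 bases apart, and the promoter window printed for COL4A2 shares 226 bases with that of COL4A1. The second probe set of each gave 1.00 for COL4A1 and 0.59 for COL4A2 in Esh9-1 cells.

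COL18A1, the core protein of a basement membrane heparan sulfate proteoglycan and the source of endostatin, rose in both lines. It was at 10.15, 10.12 and 10.11 in Esh9-1 arrays, against 8.84, 8.89 and 8.93 in HCC827NT arrays (2.36-fold, adjusted p = 9.1e-10). In ERC4 arrays it was at 7.63, 7.63 and 7.61, against 6.44, 6.23 and 6.31 in HCC827 arrays (2.45-fold, adjusted p = 1.3e-09). The difference between both log2 changes was 0.05 ± 0.09 (SE, adjusted p = 0.66). A p that misses the threshold does not show that the changes are equal.

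The laminin chains split. LAMB3 encodes the beta 3 chain of the laminin that anchors epithelial cells through hemidesmosomes. Its log2 levels were 6.93, 6.60 and 6.85 in ERC4 arrays, against 8.78, 8.50 and 8.64 in HCC827 arrays, and 10.05, 9.99 and 9.92 in Esh9-1 arrays, against 10.68, 10.77 and 10.76 in HCC827NT arrays. It fell 3.60-fold in ERC4 cells (log2 change -1.85 ± 0.09, adjusted p = 8.3e-10) and 1.68-fold in Esh9-1 cells (-0.75 ± 0.09, adjusted p = 6e-06), and the difference of -1.10 ± 0.13 was called (adjusted p = 6.9e-06). LAMB3 was the 1 member called lower in both comparisons, beside 8.8% of all genes. The alpha chain that partners LAMB3, encoded by LAMA3, is not analysed here.

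LAMC1 encodes the gamma 1 chain found in most other laminins. It was at 9.32, 9.27 and 9.31 in ERC4 arrays, against 7.91, 8.16 and 8.13 in HCC827 arrays (2.34-fold, log2 change 1.23 ± 0.07, adjusted p = 4.8e-09). In Esh9-1 arrays it was at 11.08, 11.08 and 11.17, against 10.39, 10.36 and 10.36 in HCC827NT arrays (1.67-fold, adjusted p = 6e-07). The rise was larger in ERC4 cells by 0.49 (adjusted p = 0.0011). Its second probe set gave 0.56 in ERC4 cells and 0.15 in Esh9-1 cells.

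LAMB1, the beta 1 chain that pairs with LAMC1, was at 10.26, 10.42 and 10.43 in Esh9-1 arrays, against 9.48, 9.70 and 9.52 in HCC827NT arrays (1.74-fold, adjusted p = 8.2e-07). In ERC4 arrays it was at 8.0, 8.11 and 8.08, against 8.13, 8.10 and 7.95 in HCC827 arrays (adjusted p = 0.97), although its dimmer probe set rose there by 0.92. LAMA5, the alpha chain of most adult epithelial basement membranes, went opposite ways. It was at 9.57, 9.50 and 9.49 in ERC4 arrays, against 9.22, 9.13 and 9.18 in HCC827 arrays (log2 change 0.35, adjusted p = 6.3e-04). In Esh9-1 arrays it was at 10.05, 10.00 and 9.95, against 10.37, 10.44 and 10.57 in HCC827NT arrays (-0.46, adjusted p = 4.8e-05). The rise in ERC4 cells was not called after quantile normalization (0.15). LAMA4, a chain of vessel and muscle laminins, was under the array median and fell by 0.24 in ERC4 cells (adjusted p = 0.044), a call lost without several single arrays.

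COL7A1 encodes collagen VII, the anchoring fibrils under epithelia. It was at 8.13, 7.90 and 7.87 in Esh9-1 arrays, against 6.89, 7.10 and 7.17 in HCC827NT arrays, with no overlap (1.88-fold, adjusted p = 7e-06). In ERC4 arrays it was at 5.98, 5.73 and 5.82, against 5.99, 5.84 and 6.23 in HCC827 arrays, with overlap (-0.17, adjusted p = 0.19). COL13A1, a transmembrane collagen, and COL8A1, a network collagen of vessels and cornea, fell in ERC4 cells by 0.43 and 0.20 and were not called in Esh9-1 cells (0.08 and 0.12). The COL8A1 signal lay under the array median in both groups. Its call ended with quantile normalization (-0.09), with median centring (-0.14), in a fit of only the arrays compared (adjusted p = 0.072), and without ERC4 replicate 1 (-0.15), ERC4 replicate 3 (-0.21), HCC827 replicate 2 (-0.15) or HCC827 replicate 3 (-0.20).

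**Figure D2:**
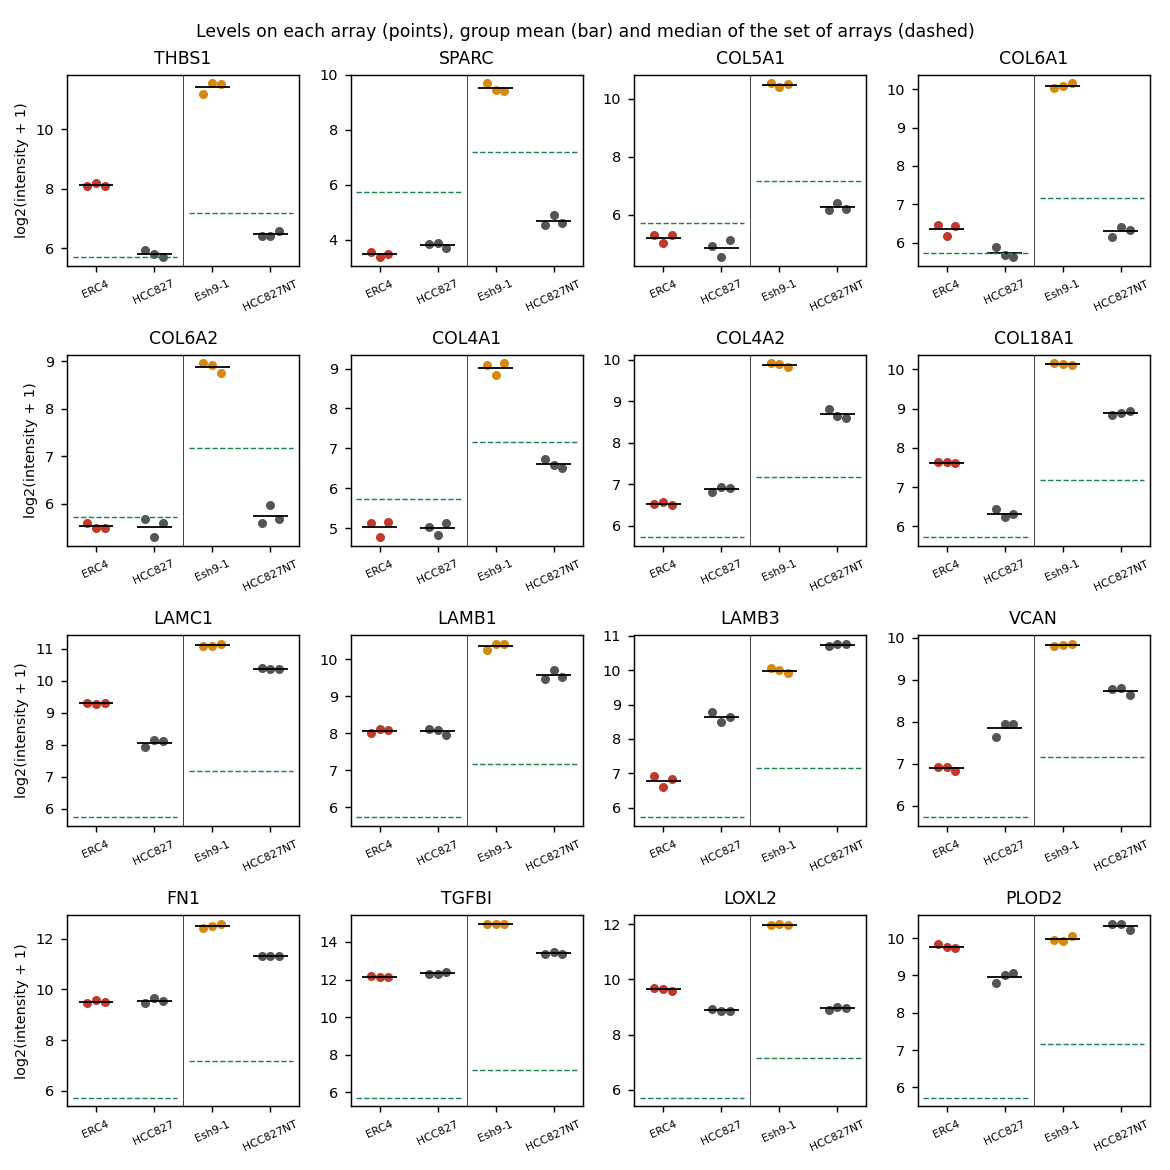
Log2 levels (vertical axis, log2 of intensity + 1, a separate scale per gene) of 16 members on each array. Points are arrays, bars are group means and the dashed line is the median of each set of arrays; SPARC and COL5A1 stand above that line only in the Esh9-1 arrays, and LAMB3 is lower in ERC4 and Esh9-1 arrays than in their controls.

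Of the 4 microfibril and fibulin genes, 3 rose in Esh9-1 cells and 1 in ERC4 cells, beside 25.3% and 28.9% of all genes. FBN1, which encodes the main microfibril protein fibrillin 1, was at 7.16, 7.19 and 7.31 in Esh9-1 arrays, against 5.26, 5.62 and 5.60 in HCC827NT arrays (3.31-fold, adjusted p = 7.7e-09). In ERC4 arrays it was at 5.04, 4.87 and 5.02, against 4.61, 4.99 and 4.92 in HCC827 arrays, where the groups overlapped (adjusted p = 0.32). FBLN1, which encodes fibulin 1, was at 7.65, 7.58 and 7.48 in Esh9-1 arrays, against 6.41, 6.54 and 6.52 in HCC827NT arrays (2.11-fold, adjusted p = 2.6e-07). In ERC4 arrays FBLN1 was at 5.54, 5.12 and 5.36, against 5.53, 5.65 and 5.49 in HCC827 arrays (adjusted p = 0.068). EFEMP1, which encodes fibulin 3, rose in both comparisons, by 0.59 in Esh9-1 and 0.39 in ERC4 cells, and the difference was not called (adjusted p = 0.1). FBN2 was called in neither.

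Among the proteoglycans, VCAN and LUM rose in Esh9-1 cells and BGN and DCN were not called, beside 25.3% of all genes called higher. VCAN encodes versican, a large proteoglycan that binds hyaluronan. It was at 9.80, 9.82 and 9.86 in Esh9-1 arrays, against 8.78, 8.80 and 8.64 in HCC827NT arrays (2.12-fold, adjusted p = 5.6e-08). In ERC4 arrays it was at 6.93, 6.91 and 6.83, against 7.64, 7.95 and 7.95 in HCC827 arrays (1.94-fold lower, log2 change -0.95 ± 0.08, adjusted p = 3.3e-07). VCAN thus moved in opposite directions without overlap in either comparison, and the difference of -2.04 ± 0.12 was called (adjusted p = 6e-09). LUM, which encodes lumican, a regulator of fibril spacing, rose in both lines, by 2.56 in Esh9-1 and 0.53 in ERC4 cells, but stayed under the array medians in all groups. BGN and DCN, which encode the small proteoglycans biglycan and decorin, fell in ERC4 cells by 0.70 (adjusted p = 6.2e-06) and 0.36 (adjusted p = 0.0037). BGN lay under the array medians in all groups. Of the DCN probe sets, those at -0.36 and -0.28 were called in ERC4 cells and those at -0.06 and -0.03 were not.

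The collagen-modifying genes were the group with most rises in ERC4 cells, where 6 of 8 rose, LOXL1 fell and LOX was not called. Of all genes, 28.9% were called higher and 28.8% lower there. None of the changes of this group in ERC4 cells reached 2-fold. In Esh9-1 cells 4 rose, PLOD2 fell and 3 were not called, beside 25.3% of all genes called higher and 24.6% lower. LOXL2 encodes a lysyl oxidase that cross-links collagen IV. It was at 11.96, 12.01 and 11.96 in Esh9-1 arrays, against 8.90, 8.99 and 8.96 in HCC827NT arrays (8.15-fold, log2 change 3.03 ± 0.06, adjusted p = 2.7e-14). In ERC4 arrays it was at 9.68, 9.65 and 9.59, against 8.93, 8.85 and 8.86 in HCC827 arrays (1.69-fold, adjusted p = 1.2e-07). The groups did not overlap in either comparison. Its other probe sets gave 0.74 and -0.13 in Esh9-1 cells, the second of them not called (adjusted p = 0.21). With the mean of its 3 probe sets the change was 1.21 in Esh9-1 cells (adjusted p = 1.6e-09) and 0.11 in ERC4 cells (adjusted p = 0.17).

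LOXL1, a cross-linker of elastin, was at 7.86, 7.63 and 7.72 in Esh9-1 arrays, against 5.94, 5.74 and 6.21 in HCC827NT arrays (3.42-fold, adjusted p = 2.6e-08). In ERC4 arrays LOXL1 was dim at 4.51, 4.60 and 4.38, against 5.11, 4.64 and 4.80 in HCC827 arrays, a fall by 0.35 (adjusted p = 0.029) that was not called without HCC827 replicate 1 (-0.22), ERC4 replicate 1 (-0.36) or ERC4 replicate 3 (-0.29). PLOD2 encodes the lysyl hydroxylase of the collagen telopeptides. It was at 9.85, 9.76 and 9.72 in ERC4 arrays, against 8.79, 9.01 and 9.05 in HCC827 arrays (1.77-fold higher, adjusted p = 1e-06). In Esh9-1 arrays it was at 9.94, 9.92 and 10.05, against 10.39, 10.38 and 10.22 in HCC827NT arrays (log2 change -0.36, adjusted p = 0.0018), a call that the mean of both probe sets did not give (-0.18). PLOD1, P4HA1, P4HA2 and SERPINH1 rose by 0.30 to 0.44 in ERC4 cells. After quantile normalization PLOD1 (0.16), P4HA1 (0.16) and P4HA2 (0.09) were not called, and SERPINH1 was at 0.22. Of the 6 rises of this group in ERC4 cells, those of PLOD2 and SERPINH1 held under every alternative run. In Esh9-1 cells PLOD1 rose by 0.74 and P4HA2 by 0.43, while P4HA1 (-0.10) and SERPINH1 (-0.16) were not called.

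Basement membrane and fibrillar matrix were set side by side, counting COL7A1 with the basement membrane genes and the COL6 genes and COL16A1 with the fibrillar ones. In Esh9-1 cells 6 of 9 basement membrane genes rose and 2 fell, with a median log2 change of 0.80, and 6 of 10 fibrillar genes rose and none fell, with a median of 0.63. In ERC4 cells 3 of 9 basement membrane genes rose and 3 fell, with a median of 0.00, and 2 of 10 fibrillar genes rose and 5 fell, with a median of -0.10. The medians over all genes were -0.02 in Esh9-1 and -0.04 in ERC4 cells. Of all genes, 25.3% were called higher and 24.6% lower in Esh9-1 cells, and 28.9% and 28.8% in ERC4 cells. The basement membrane counts in ERC4 cells lay near those shares. The groups were measured at unequal brightness. In Esh9-1 cells 8 of the 9 basement membrane genes but 4 of the 10 fibrillar genes reached the array median in the higher group, and in ERC4 cells the counts were 7 and 2. One side was not tested against the other.

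Across both comparisons, 10 members were higher in both derived lines (COL5A1, COL6A1, COL18A1, LAMC1, THBS1, EFEMP1, LUM, LOXL2, PLOD1 and P4HA2), beside 13.4% of all genes. In ERC4 cells the calls of COL5A1, COL6A1, LOXL2, PLOD1 and P4HA2 did not hold under every alternative run. COL5A1 and LUM lay under the array median in the ERC4 comparison. Another 8 were lower in ERC4 and higher in Esh9-1 cells (COL5A2, COL6A3, COL16A1, COL4A2, SPARC, TGFBI, VCAN and LOXL1), beside 3.25% of all genes. In the ERC4 comparison 5 of these 8 lay under the array median, and VCAN and COL4A2 were the ones whose call in ERC4 cells held under every alternative run. LAMA5 and PLOD2 were higher in ERC4 and lower in Esh9-1 cells, beside 6.4% of all genes. By their brightest probe sets, a further 8 were called higher in Esh9-1 cells and not called in ERC4 cells (COL6A2, COL4A1, LAMB1, COL7A1, FN1, THBS2, FBN1 and FBLN1). For each of these the difference between the comparisons was called too. Of all genes, 25.3% were called higher in Esh9-1 cells, whatever their call in ERC4 cells. This share also holds the 13.4% and the 3.25% given above. The share of all genes in the class of these 8 is therefore smaller than 25.3%. A dimmer probe set was called lower in ERC4 cells for COL6A2 (-0.40) and COL7A1 (-0.53), and so were those of FBLN1 that gave -0.24 and -0.39. A dimmer probe set was called higher there for LAMB1 (0.92), FN1 (0.19) and FBN1 (0.25). The comparisons share no arrays.

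**Figure D3:**
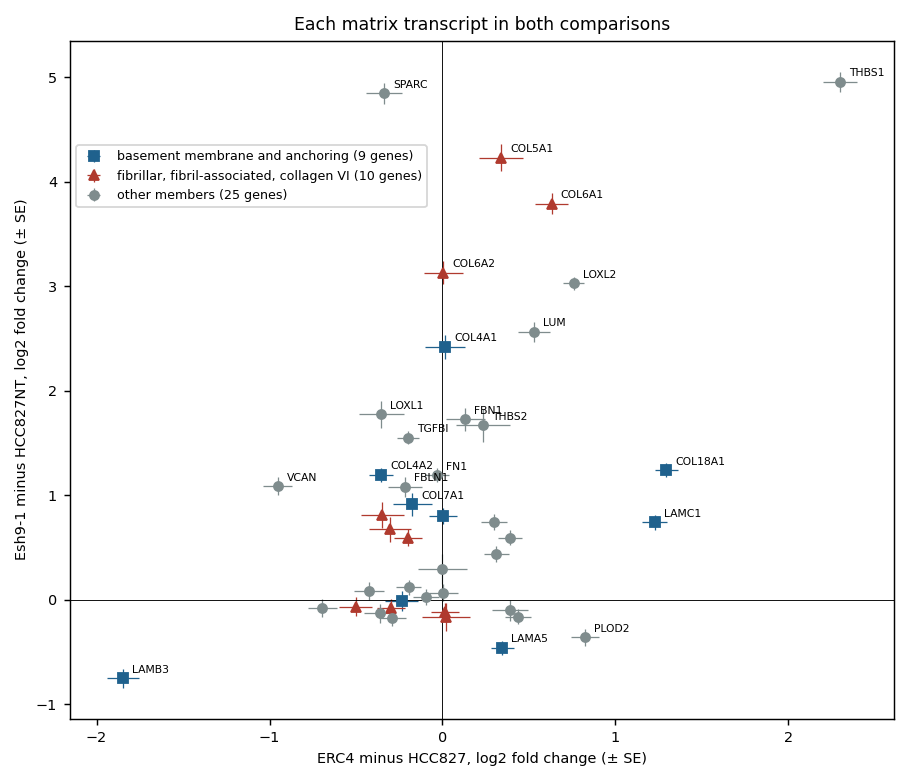
Log2 fold change of each measured member in ERC4 minus HCC827 (horizontal axis) and in Esh9-1 minus HCC827NT (vertical axis), with SE as bars, for 9 basement membrane and anchoring genes (squares), 10 fibrillar and associated collagens (triangles) and 25 other members (circles). THBS1 lies far out on both axes, SPARC is high on the vertical axis and below 0 on the horizontal one, and LAMB3 lies below 0 on both.

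Members that neighbour each other in the genome did not always change alike. COL6A1 and COL6A2 on chromosome 21 had log2 changes of 3.79 and 3.13 in Esh9-1 cells and of 0.63 and 0.00 in ERC4 cells. LUM and DCN on chromosome 12 had 2.56 and -0.13 in Esh9-1 cells, and 0.53 and -0.36 in ERC4 cells. COL3A1 and COL5A2 on chromosome 2 had -0.07 and 0.59 in Esh9-1 cells, and -0.50 and -0.20 in ERC4 cells.

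Several probe sets, 109 in all, read the 44 members, and 32 members had more than 1. In Esh9-1 against HCC827NT, all probe sets were called the same way for 13 of the 32, and FN1 was the 1 member with opposite calls, of -0.93 for one probe set against 1.19 for the brightest. LOX, which encodes the founding lysyl oxidase, was not called by its brightest probe set (0.30, adjusted p = 0.1), while its other probe sets rose by 2.16 and 3.24. The last of these had a mean of 7.67 in Esh9-1 cells, above the array median of 7.17, and of 4.43 in HCC827NT cells. COL13A1 also had a dimmer probe set that rose by 1.68, and that of EFEMP1 rose by 1.75. In ERC4 against HCC827, all probe sets were called the same way for 10 of the 32, and COL6A1 and LOXL2 had opposite calls. For COL6A1 a dimmer probe set fell by 0.47 and for LOXL2 by 0.58. For 8 members the brightest probe set was not called there and another was (COL1A2, COL11A1, COL6A2, LAMB1, COL7A1, FN1, FBN1 and FBLN1). With the mean of probe sets the log2 change in Esh9-1 cells was 0.73 for FN1, 0.50 for FBLN1, 0.44 for LAMC1 and 1.17 for EFEMP1, all called, and in ERC4 cells -0.26 for COL13A1 and -0.18 for DCN. The single probe sets of VCAN gave -1.31 to -0.26 in ERC4 cells, and the dimmer probe set of PLOD2 gave 1.59 there. These further probe sets were picked out after their values were seen. Calls of single probe sets here are adjusted over all single-symbol probe sets, and calls of means over all genes. Probe sets can read different transcripts of a gene, and those whose name ends in x_at can also read other genes, among them the brightest of COL1A1, COL3A1, COL13A1, FN1, BGN and DCN.

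**Figure D4:**
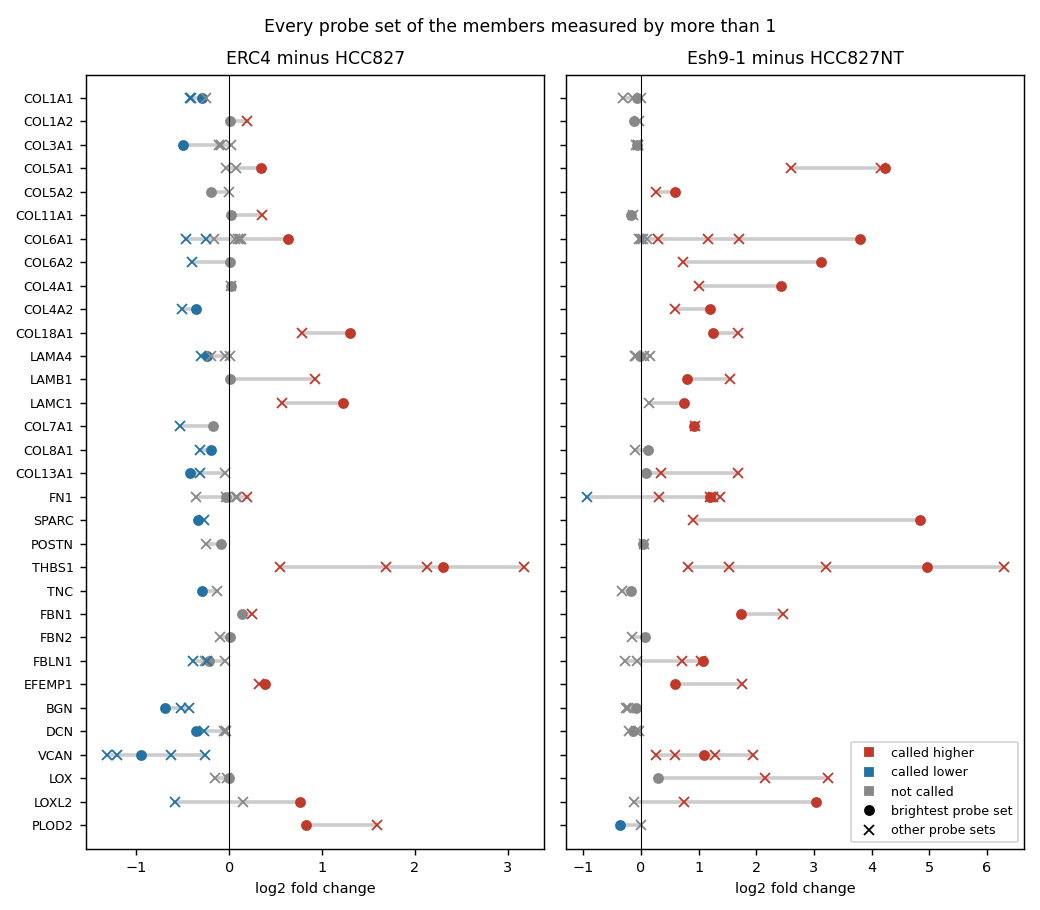
Log2 fold change of each probe set (horizontal axis) of the 32 members measured by more than 1, in ERC4 minus HCC827 (left) and Esh9-1 minus HCC827NT (right), with calls adjusted over all probe sets, so that COL5A2 is grey on the left. Filled circles are the brightest probe sets and crosses the others; the spread is widest for THBS1, whose probe sets all lie above 0 in both panels.

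Other matrix genes, a list of 67 that are not members, were read from the same fit. In Esh9-1 cells 19 of the 60 measured rose and 7 fell, beside 25.3% and 24.6% of all genes, and the median log2 change was 0.01, beside -0.02. In ERC4 cells 7 rose and 30 fell, beside 28.9% and 28.8% of all genes, with a median of -0.22, beside -0.04. Both groups lay under the array median for 37 of the 60 in the Esh9-1 and 35 in the ERC4 comparison. The genes named next had the largest called changes among those whose higher group reached the array median. P3H2, a prolyl 3-hydroxylase of basement membrane collagen, rose 7.97-fold in Esh9-1 and 5.55-fold in ERC4 cells. PCOLCE2, an enhancer of procollagen processing, rose 5.01-fold in Esh9-1 and 2.91-fold in ERC4 cells. SDC1, which encodes the epithelial proteoglycan syndecan 1, fell 5.19-fold in Esh9-1 and 4.08-fold in ERC4 cells. MATN2, which encodes matrilin 2, rose 5.61-fold in Esh9-1 cells. HSPG2, which encodes the basement membrane proteoglycan perlecan, fell by 1.10 on the log2 scale in ERC4 cells and rose by 1.47 in Esh9-1 cells, with a called difference (adjusted p = 1.7e-10). The HCC827NT means of P3H2, PCOLCE2, MATN2 and HSPG2 lay under the array median, as did the HCC827 means of P3H2 and PCOLCE2. Their rises thus stand on dim control signals that are not shown to be above background.

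HCC827NT cells themselves were set beside HCC827 cells as a description only, since the control groups lie in separate sets of arrays and group and set cannot be told apart. The 26 members that rose in Esh9-1 against HCC827NT were picked by those same arrays. This favours high Esh9-1 and low HCC827NT values, so the counts below are tilted in advance. Centring does not remove the unequal spread of the sets, and the shares over all genes are not given. After centring each array on its median, Esh9-1 stood above HCC827 cells for 25 of the 26 members, the exception being COL16A1. HCC827NT stood below HCC827 cells for 17 of the 26, with a centred log2 difference of -0.03 for COL5A1, -0.56 for SPARC, -0.77 for THBS1 and -1.34 for LOXL2. The centred log2 difference between Esh9-1 and HCC827 cells was 4.20 for COL5A1, 4.28 for SPARC, 4.18 for THBS1 and 1.68 for LOXL2.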

How the data were processed

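Transcripts were measured on Affymetrix arrays of 22277 probe sets. The deposited values are intensities on a linear scale, made by the authors with RMA, per the submitters' processing notes. Which arrays RMA was run on together, and its version, is not given in the sources used here. The platform annotation gave 1 symbol for 19070 probe sets, several for 1043 and none for 2164. The brightest single-symbol probe set stood for a gene, which gave 11963 genes.

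Values were taken to log2(intensity + 1), which understates fold changes of dim genes, and fitted in R 4.3.3 by limma 3.58.1 (functions lmFit and eBayes, 1 mean per group, 12 arrays, 8 residual degrees of freedom). All adjusted p-values are two-sided and Benjamini-Hochberg adjusted, with calls at 0.05. The adjustment was over all genes tested, or over all single-symbol probe sets for calls of single probe sets. The difference of effects is ERC4 minus HCC827, minus Esh9-1 minus HCC827NT. The fit was tested on simulated data with known changes. With 3 arrays in a group, their number limits the precision. Files hold no detection calls, so the median of the arrays compared served to mark dim genes.

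The members and lists were chosen with earlier results of these data known. Per-array values are given for members called at 2-fold or more whose groups did not overlap and whose higher group reached the array median, and for COL4A1, COL4A2, LAMB3, LAMC1, COL7A1, FN1 and SPARC whatever their result. LAMA5, LAMB1 and PLOD2 were given the same way after their values were seen. Of the other matrix genes, up to 4 per comparison that met the same demands on calls, overlap and brightness are named, by size of change. COL4A5, which fell 3.16-fold in ERC4 cells, was under the array median and so is not among them. Alternatives were the replicate number as a block, only the arrays compared, a trend and robust prior, quantile normalization, median centring, no pseudocount, dim genes left out, the mean of probe sets, leaving out each array, and calls at 0.01.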

Additional observations from a re-analysis of the deposited data

Results flagged for a closer look

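These members were called in opposite directions in the comparisons, with the difference between their changes (ERC4 minus HCC827, less Esh9-1 minus HCC827NT, log2 scale) called by limma as well. The difference was -5.18 for SPARC, -2.13 for LOXL1, -2.04 for VCAN, -1.75 for TGFBI, -1.55 for COL4A2, -1.16 for COL16A1, -0.98 for COL6A3 and -0.79 for COL5A2, each lower in ERC4 and higher in Esh9-1 cells. It was 1.18 for PLOD2 and 0.81 for LAMA5, each higher in ERC4 and lower in Esh9-1 cells. In ERC4 cells the calls of SPARC, LOXL1, COL16A1, COL6A3 and COL5A2 were made on signals under the array median. Those of SPARC, LOXL1, TGFBI, LAMA5, COL16A1, COL6A3 and COL5A2 were lost in at least 1 alternative, as was that of PLOD2 in Esh9-1 cells. Groups of 3 arrays are too small for a check of single arrays that stand apart.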

How the results depend on the processing

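No call of a member turned its direction. In Esh9-1 against HCC827NT, 28 of the 29 calls held under every alternative that tested the gene, and PLOD2 lost its call with the mean of its probe sets. The count of rises ran from 22 to 28 over the alternatives and from 26 to 27 with an array left out, and that of falls from 3 to 4 in both. In ERC4 against HCC827, 16 of the 31 calls held throughout. The count of rises ran from 10 to 14, and from 13 to 14 with an array left out. The 17 falls became 10 with median centring, 9 at an adjusted p under 0.01 and 8 with dim genes left out, where only 23 members were tested, and ran from 12 to 17 with an array left out. The calls of COL6A1 and LOXL2 ended with the mean of probe sets, and those of LAMA5, PLOD1, P4HA1 and P4HA2 with quantile normalization, which also gave -0.49 for COL1A1, -0.47 for TNC and 0.16 for EFEMP1, all still called. Leaving out single arrays ended those of COL5A1, COL5A2, COL6A3, COL16A1, LAMA4, COL8A1, SPARC, TGFBI and LOXL1. The count of called differences ran from 25 to 35, and from 31 to 32 with an array left out. Deviations of same-numbered arrays correlated at 0.00 to 0.07 in ERC4 and HCC827 and at -0.12 to -0.02 in Esh9-1 and HCC827NT. No shared deviation was thus seen, which cannot show that same-numbered samples were handled apart. With the replicate number as a block, 14 members rose and 16 fell in ERC4, 26 rose and 3 fell in Esh9-1 cells, and 32 differences were called; COL5A2 lost its call in ERC4 cells (adjusted p = 0.067). Dim signals limit what can be read of the 13 members whose brightest probe sets lay under the array median in both comparisons. For LOX, a probe set with a lower mean over the 12 arrays did reach that median in Esh9-1 cells.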
